A study of Mus musculus with 6 samples.

Results

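Non-collagen extracellular matrix genes were examined in skeletal muscle of mice lacking Rpt3, also called Psmc4, an ATPase subunit of the 26S proteasome. The 46 genes were listed by name and cover adhesive and matricellular glycoproteins, elastic fiber and microfibril proteins, proteoglycans, basement membrane proteins, collagen-processing enzymes and the receptor gene Pdgfra. Of these, 45 had a named probe on the array and 43 had a probe that the scanner did not flag as near background on 3 or more of the 6 arrays, among 14731 genes that met the same condition. Mfap4, which encodes a microfibril-associated protein, had no probe with its name. Emilin1, whose product lies between elastin and microfibrils, and Lama4, a laminin chain of vessel walls, were above background on 0 arrays and were not tested. Muscle RNA came from 3 Rpt3 null mice and 3 control mice, all female and 6 weeks old, with 1 CodeLink bioarray per mouse. They are called Rpt3-/- and Rpt3+/+ here. The labels give every mouse the strain mlc1f-Cre/ Rpt3-floxed and do not state the Rpt3 alleles of the controls, which the paper describes as carrying Cre with wild-type Rpt3. The labels name the tibialis anterior, whereas the paper's text names the gastrocnemius for the arrays. Cre was driven by the myosin light chain 1 fast promoter, which in adults is active in fast-twitch fibers. The authors describe its excision as incomplete and name slow-twitch fibers, fibroblasts, endothelial cells and macrophages among the cells in which Rpt3 could remain.

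Each muscle fiber is wrapped in a basement membrane of laminins, nidogens, perlecan and collagen IV, which is anchored to the fiber by integrins and dystroglycan. Between the fibers, fibroblasts and fibro-adipogenic progenitors lay down fibrillar collagens together with fibronectin, fibrillin microfibrils, small leucine-rich proteoglycans and matricellular proteins. Matricellular proteins such as tenascin-C, periostin and the thrombospondins regulate how cells attach and repair tissue, and are known to be abundant in tendon and in regenerating or fibrotic muscle.

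The promoters of 3 members are shown because they include the microfibril gene Mfap2 and the thrombospondin gene Thbs4, both higher in Rpt3-/- muscle under nearly every setting, and Postn, the member that rose with the widest spread between control mice. Promoter windows from RefSeq on the GRCm38.p6 build were at hand for 32 of the 46 genes, and the 250 bases before a transcript start were searched on both strands for the letters TATAAA of the TATA box, GGGCGG of the GC box and CAGACA of the core sequence that Smad proteins bind. Mfap2 start site 1 lay at chr4:141010431-141010680 on the plus strand, Thbs4 at chr13:92794819-92795068 on the minus strand, and Postn start site 2 at chr3:54360857-54361106 on the plus strand. Each is written 5′ to 3′ with matches in capitals, where CCGCCC and TGTCTG are the GC box and the Smad core read on the opposite strand.
Mfap2: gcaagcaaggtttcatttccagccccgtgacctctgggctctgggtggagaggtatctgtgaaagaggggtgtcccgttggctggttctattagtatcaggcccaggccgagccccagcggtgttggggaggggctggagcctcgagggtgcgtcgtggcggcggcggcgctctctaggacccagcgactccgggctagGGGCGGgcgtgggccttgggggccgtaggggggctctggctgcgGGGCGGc
Thbs4: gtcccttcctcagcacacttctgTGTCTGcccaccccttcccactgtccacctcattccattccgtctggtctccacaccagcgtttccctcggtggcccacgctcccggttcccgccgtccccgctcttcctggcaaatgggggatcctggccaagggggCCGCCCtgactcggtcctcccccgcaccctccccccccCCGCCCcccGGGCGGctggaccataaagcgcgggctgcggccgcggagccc
Postn: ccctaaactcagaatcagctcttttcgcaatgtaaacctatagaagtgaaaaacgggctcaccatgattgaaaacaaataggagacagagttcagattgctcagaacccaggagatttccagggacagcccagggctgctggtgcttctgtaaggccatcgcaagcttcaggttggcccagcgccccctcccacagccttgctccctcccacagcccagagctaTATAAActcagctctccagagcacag
The Mfap2 window held GGGCGG starting 51 and 7 bases before the start, the Thbs4 window held it 89, 51 and 42 bases before the start and CAGACA 227 bases before it, and the Postn window held TATAAA 26 bases before the start. GGGCGG was found in 20 of 32 members and in 35.4% of 27025 genes with a window, CAGACA in 10 of 32 members and 19.3% of all genes, and TATAAA in 6 of 32 members and 14.3% of all genes. A gene was counted where the window of any of its start sites held the letters. The 27025 genes were not limited to those tested on the arrays, so the shares come from unlike sets. Among the 11 members that rose and had a window, 7 held GGGCGG, 6 held CAGACA and 3 held TATAAA. Mgp, Fn1 and Mfap5 rose but had no window at hand. Of the start sites not shown, start site 1 of Postn held none of the letters, and start site 2 of Mfap2 held CAGACA 216 bases before the start and no GGGCGG. These are matches of letters and were not tested as binding sites.

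In Rpt3-/- muscle 14 of the 43 tested members were higher than in Rpt3+/+ muscle and 0 were lower, at an adjusted p under 0.05 in a limma fit over all 14731 genes. Over all tested genes 12.7% were higher and 6.56% lower. The counts in the groups and lists below stand beside these shares. The members that rose were Mgp, Postn, Mfap2, Tnc, Fn1, Thbs4, Pdgfra, Mfap5, Thbs2, Fbln1, Pcolce, Nid1, Lamb2 and Fbln2, with fold changes between 1.49 and 2.83. At an unadjusted p under 0.05 the limma fit had 23 members higher and 1 lower, against 19.2% and 12.9% of all tested genes. Every Rpt3-/- array lay above every Rpt3+/+ array for 24 members, against 21.2% of all tested genes, and below for 2 members, against 15.6%. The median log2 fold change of the members was 0.40, a ratio of 1.32, beside -0.01 over all tested genes, and single members ranged from -0.48 for Ogn to 1.5 for Mgp. With the arrays centred on their median in place of quantile normalization 24 members were higher and 0 lower, while over all genes 2555 were higher and 602 lower in place of 1870 and 967. In whole-muscle RNA a change in the number of cells that make a transcript and a change in transcript per cell cannot be told apart.

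**Figure D1:**
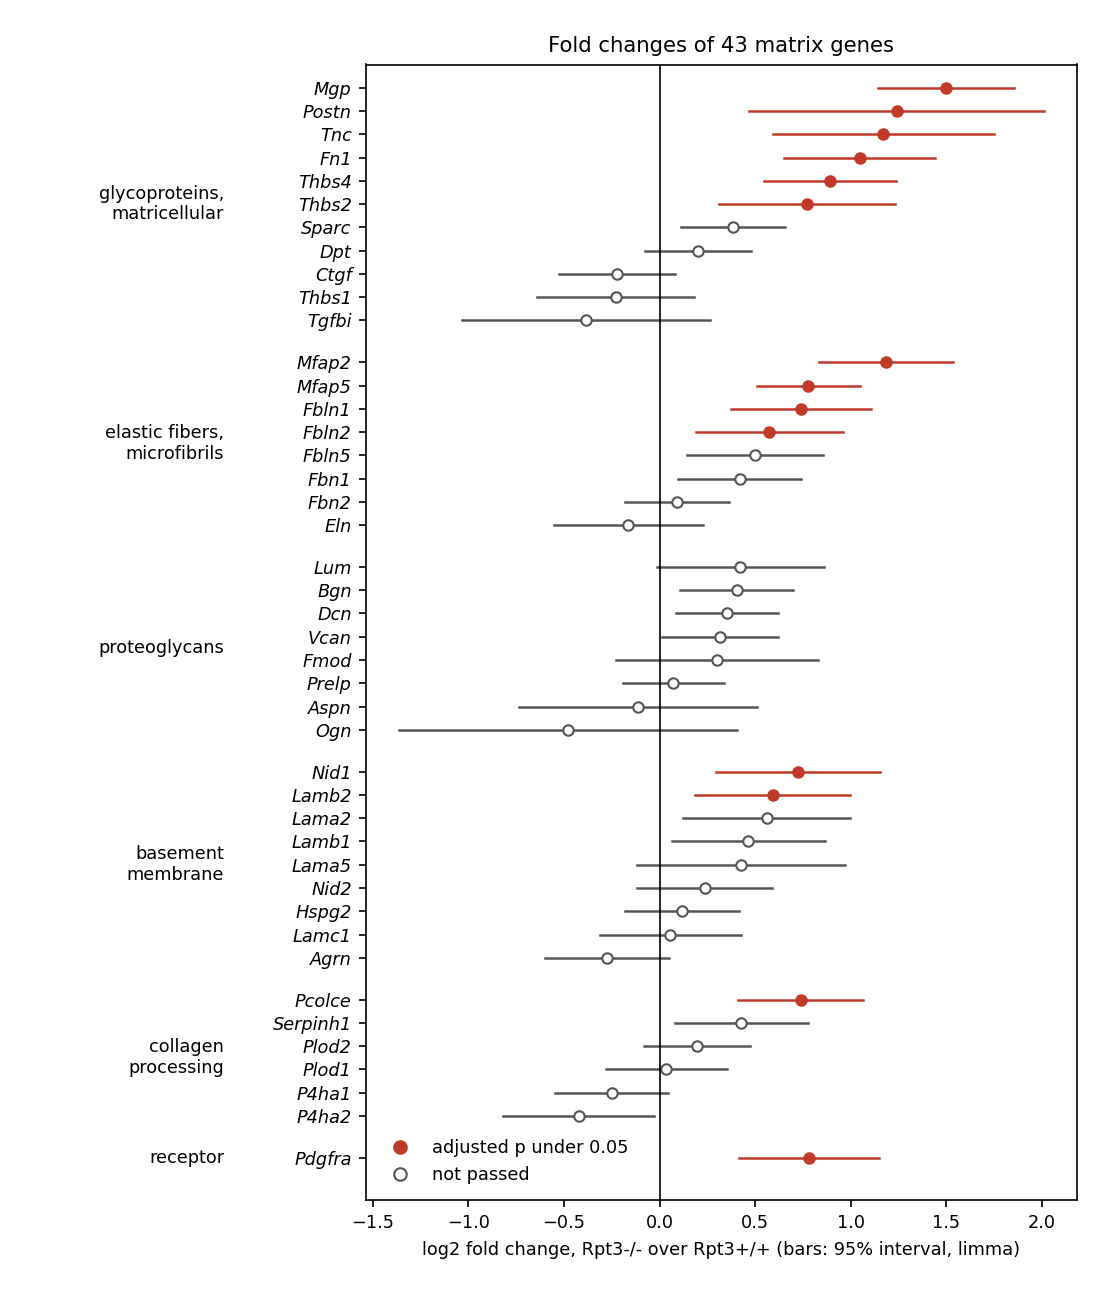
Log2 fold change of each of the 43 tested members, Rpt3-/- over Rpt3+/+, grouped by role, with 95% confidence intervals from limma (3 arrays per group). Filled red points mark the 14 members with an adjusted p under 0.05, all to the right of 0, and open points the 29 that did not pass.

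The arrays were checked first. Psmc4, the targeted gene, was lower by 1.17 on the log2 scale in Rpt3-/- muscle (SE 0.13, adjusted p = 0.00031 from limma), with all 3 Rpt3-/- arrays below all 3 Rpt3+/+ arrays. These values are from the brighter of 2 Psmc4 probes above background on enough arrays, and the other probe is not given. Between 57.0% and 74.5% of probes were above background, with both extremes among the Rpt3+/+ arrays, array 2 being the dimmest and array 1 the brightest. All 17 muscle fiber genes with a probe, among them Acta1, Ckm and Myh4, were above background on at least 5 arrays. Values below are log2 normalized intensities of 1 probe per gene, and a level of a gene is compared only between arrays for the same probe. Summed intensities add the linear values of the probes of a list. They are compared between arrays over the same probes, and bright probes weigh most in them.

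Among the 11 glycoproteins and matricellular proteins 6 rose and 0 fell, with a median log2 fold change of 0.77. Mgp encodes matrix Gla protein, an inhibitor of calcification in vessels and cartilage. Its intensity was 12.33, 11.97 and 12.00 on Rpt3-/- arrays 1 to 3, compared with 10.39, 10.84 and 10.57 on Rpt3+/+ arrays 1 to 3. The groups stood more than the range of either group apart, and Mgp was 2.83-fold higher (log2 fold change 1.5, SE 0.16, adjusted p = 0.000225 from limma). Fn1 encodes fibronectin, which links integrins to collagens and other matrix proteins. It measured 11.67, 11.08 and 11.22 on the Rpt3-/- arrays against 10.06, 10.46 and 10.30 in the controls, without overlap. Fn1 was 2.07-fold higher (log2 fold change 1.05, SE 0.18, adjusted p = 0.00281 from limma). Thbs4, a thrombospondin of tendon and muscle matrix, stood at 13.12, 12.87 and 13.21 against 11.96, 12.40 and 12.16. Its 3 Rpt3-/- values were again all above the controls, and the log2 fold change was 0.89 (SE 0.15, adjusted p = 0.00316 from limma).

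Tnc, Postn and Thbs2 rose with a wide spread between control mice. Tnc, the gene of tenascin-C, measured 10.98, 10.63 and 10.73 on the Rpt3-/- arrays against 9.00, 10.22 and 9.61 in the controls. Control array 2 came close to the Rpt3-/- arrays while control array 1 lay far below, and the log2 fold change was 1.17 (SE 0.26, adjusted p = 0.0108 from limma). Postn encodes periostin, a matricellular protein that binds integrins and aids collagen cross-linking. It measured 9.96, 10.10 and 10.29 against 7.88, 9.54 and 9.21, so that the control range was wider than the difference between the group means. The log2 fold change of Postn was 1.24 (SE 0.35, adjusted p = 0.0312 from limma), and 0.76 without control array 1 (adjusted p = 0.00319 from limma). Thbs2, a thrombospondin that limits vessel growth, measured 8.93, 8.65 and 8.71 against 7.57, 8.46 and 7.96, with control array 2 close to the Rpt3-/- arrays, and its log2 fold change was 0.77 (SE 0.21, adjusted p = 0.0263 from limma). Tnc did not pass without Rpt3-/- array 1 (adjusted p = 0.0675 from limma), and of the analyses that left out 1 array, Postn and Thbs2 passed only without control array 1 or 2 (adjusted p between 0.0518 and 0.124 from limma without each of the other 4 arrays).

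The other 5 glycoproteins did not pass. Sparc, which encodes a collagen-binding matricellular protein, measured 12.68, 12.72 and 12.65 against 12.41, 12.25 and 12.22 without overlap, a log2 fold change of 0.38 (SE 0.12, adjusted p = 0.0527 from limma), and passed in 11 of 20 alternative analyses. Dpt, the gene of dermatopontin, which binds decorin and fibronectin, had a log2 fold change of 0.20. Ctgf, a matricellular gene induced by TGF-β, had -0.22, and Thbs1, a thrombospondin that activates latent TGF-β, had -0.23 with only 2 arrays of each group above background. Tgfbi, an adhesion protein gene named for its induction by TGF-β, had -0.38 and measured 6.80, 7.05 and 7.22 against 6.63, 7.96 and 7.64. Without control array 1, its lowest, Tgfbi was lower in Rpt3-/- muscle (log2 fold change -0.76, adjusted p = 0.00344 from limma), and without control array 2 its log2 fold change was -0.11 (adjusted p = 0.777).

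**Figure D2:**
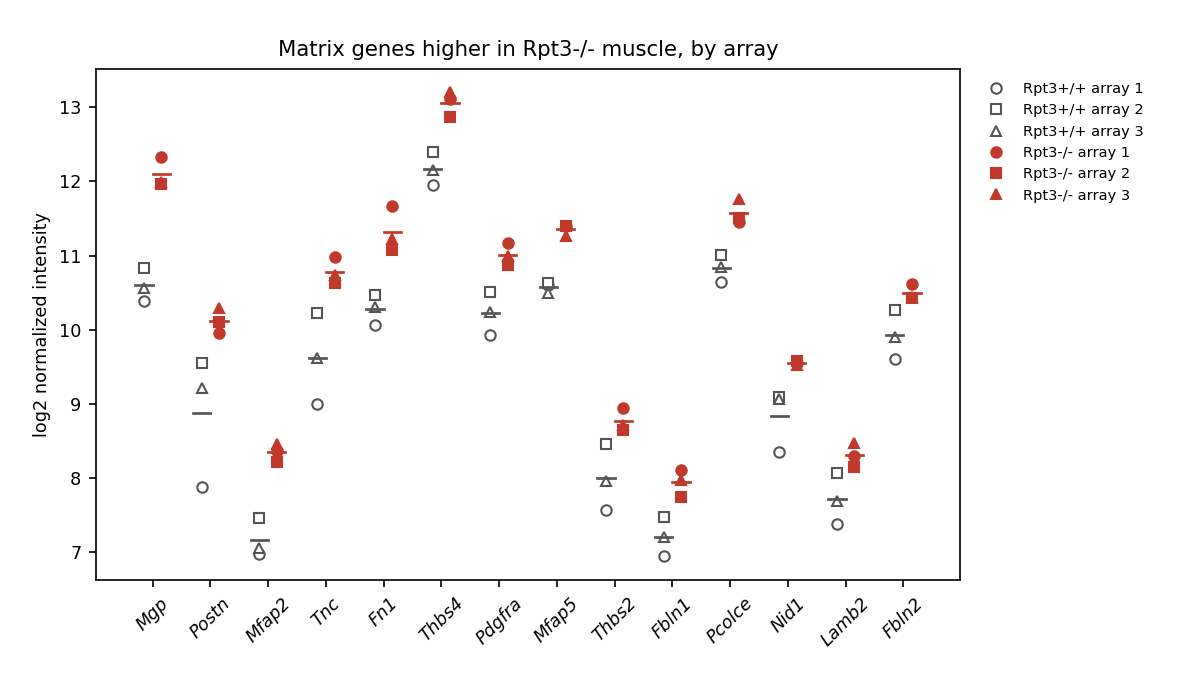
Log2 normalized intensity of the 14 members that rose, with 1 point per array, symbols by array number and a bar at the group mean of 3 arrays. Red Rpt3-/- points lie above grey Rpt3+/+ points for every gene, and control array 2 is the highest control in 14 of 14 and array 1 the lowest in 13.

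Of 8 tested genes of elastic fibers and microfibrils 4 rose and 0 fell, with a median log2 fold change of 0.54. Mfap2 and Mfap5 encode small glycoproteins that bind fibrillin microfibrils. Mfap2 measured 8.36, 8.21 and 8.46 on the Rpt3-/- arrays against 6.97, 7.46 and 7.06 in the controls. The groups were clearly apart and Mfap2 was 2.27-fold higher (log2 fold change 1.18, SE 0.16, adjusted p = 0.000758 from limma). Mfap5 measured 11.40, 11.39 and 11.26 against 10.60, 10.63 and 10.50, with both groups tight, and its log2 fold change was 0.78 (SE 0.12, adjusted p = 0.00179 from limma). Fbln1 and Fbln2 encode fibulins, which bridge elastic fibers, microfibrils and basement membranes. Fbln1 measured 8.11, 7.74 and 7.96 against 6.94, 7.46 and 7.19, a log2 fold change of 0.74 (SE 0.16, adjusted p = 0.0112 from limma). Fbln2 measured 10.62, 10.42 and 10.45 against 9.60, 10.26 and 9.90, a log2 fold change of 0.57 (SE 0.17, adjusted p = 0.0422 from limma). Neither fibulin overlapped between groups, but Fbln2 passed in no analysis that left out an array other than control array 2 (adjusted p between 0.0641 and 0.159 from limma), and Fbln1 did not pass without Rpt3-/- array 1 or 3 or control array 3 (adjusted p between 0.0504 and 0.0625 from limma).

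The structural proteins of elastic fibers did not pass. Fbn1, the gene of the main fibrillin of adult tissue, had a log2 fold change of 0.42 (SE 0.14, adjusted p = 0.0698 from limma), and Fbn2, its developmental relative, had 0.09. Eln, which encodes tropoelastin, had -0.16, and a dimmer second probe of Eln had 0.07. Fbln5, a fibulin needed for elastic fiber assembly, had 0.50 (adjusted p = 0.0541 from limma). It passed in 9 of 20 alternative analyses, among them those without Rpt3-/- array 2 or without control array 2.

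None of the 8 interstitial proteoglycan genes passed, 6 of them having positive and 2 negative log2 fold changes around a median of 0.31, and at an unadjusted p under 0.05 limma had 3 higher and 0 lower, beside 19.2% and 12.9% of all tested genes. Bgn, which encodes the small leucine-rich proteoglycan biglycan, had the lowest adjusted p of the group. It measured 9.96, 9.88 and 9.90 on the Rpt3-/- arrays against 9.38, 9.70 and 9.44 in the controls, without overlap. The log2 fold change was 0.40 (SE 0.13, adjusted p = 0.0589 from limma). Bgn passed in 5 of 20 alternative analyses, among them that without control array 2 (adjusted p = 0.0223 from limma). Its close relative Dcn, the gene of decorin, a regulator of collagen fibril growth, had 0.35 (adjusted p = 0.0669 from limma). For Dcn the Rpt3+/+ arrays lay between 12.18 and 12.19 and the Rpt3-/- arrays between 12.45 and 12.62. Dcn passed in 7 of 20 alternative analyses. Lum, Fmod and Prelp, which encode the keratan sulfate-bearing lumican and fibromodulin and the related prolargin, had 0.42, 0.30 and 0.07. Vcan, the large chondroitin sulfate proteoglycan versican, had 0.32. The lowest value of all members was that of Ogn, the gene of osteoglycin, at -0.48. It measured 8.46, 9.02 and 8.98 against 8.20, 10.12 and 9.59, so that control array 1 was the lowest and control array 2 the highest of all 6 arrays. Aspn, the gene of asporin, had -0.11 and the same order of control arrays, at 6.99, 8.36 and 7.71. Without control array 1 Ogn was lower in Rpt3-/- muscle (log2 fold change -1.05, adjusted p = 0.00143 from limma), and without control array 2 its log2 fold change was -0.07 (adjusted p = 0.893).

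Of 9 tested basement membrane genes 2 rose, 1 nidogen and 1 laminin chain, and 0 fell, with a median log2 fold change of 0.43. The shares over all tested genes were 12.7% higher and 6.56% lower. Nid1 encodes nidogen, which joins the laminin network to collagen IV. It measured 9.55, 9.58 and 9.52 on the Rpt3-/- arrays against 8.34, 9.08 and 9.06 in the controls. The Rpt3-/- arrays nearly coincided and the controls were spread by array 1, and the log2 fold change was 0.72 (SE 0.19, adjusted p = 0.025 from limma). Nid1 did not pass when any 1 of the Rpt3-/- arrays was left out (adjusted p between 0.0731 and 0.0919 from limma). Lamb2, a laminin β chain concentrated at the neuromuscular junction, measured 8.29, 8.14 and 8.47 against 7.37, 8.07 and 7.69, with control array 2 almost level with the lowest Rpt3-/- array. Its log2 fold change was 0.59 (SE 0.18, adjusted p = 0.0462 from limma), and it passed in no analysis that left out an array other than control array 2 (adjusted p between 0.0652 and 0.174 from limma).

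All 5 tested laminin chains had positive log2 fold changes, with a median of 0.46 and 1 called, although the value of Lamc1 turned negative in 2 of 21 alternatives. Lama2, the main α chain of the adult fiber and the gene mutated in merosin-deficient muscular dystrophy, had 0.56 (adjusted p = 0.0736 from limma), and Lamb1, the other widespread β chain, had 0.46 (adjusted p = 0.102 from limma). Both passed without control array 2 (adjusted p = 0.0125 and 0.0113 from limma). Lama5, an α chain of developing muscle and vessels, had 0.43, and was higher without control array 1 (log2 fold change 0.73, adjusted p = 0.00631 from limma), with 0.26 without control array 3. Lamc1, the γ chain that most laminins share, had 0.06. Nid2, a second nidogen, had 0.24. Hspg2, which encodes the heparan sulfate proteoglycan perlecan, had 0.12, and 0.11 with its dimmer second probe. Agrn, whose product agrin clusters acetylcholine receptors at the synapse, had -0.28 (adjusted p = 0.228 from limma). It measured 7.5, 7.80 and 7.76 on the Rpt3-/- arrays, all below 8.16, 7.91 and 7.82 on the Rpt3+/+ arrays. The scanner report gives no transcript for this probe. A second Agrn probe, designed to a RefSeq transcript, was above background on 0 arrays and was not tested.

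Of the 6 collagen-processing genes 1 rose and 0 fell, with a median log2 fold change of 0.12. This count is near the share of all tested genes, of which 12.7% were higher and 6.56% lower. Pcolce encodes a secreted enhancer of the proteinase that trims procollagen. It measured 11.45, 11.50 and 11.76 on the Rpt3-/- arrays against 10.64, 11.01 and 10.84 in the controls, without overlap, a log2 fold change of 0.74 (SE 0.15, adjusted p = 0.00643 from limma). Serpinh1, the gene of the collagen chaperone of the endoplasmic reticulum, had 0.43 (adjusted p = 0.0849 from limma) with its brighter probe and 0.04 with its other probe. The catalytic subunits of prolyl 4-hydroxylase, which stabilizes the collagen helix, had negative values, -0.25 for P4ha1 and -0.42 for P4ha2 (adjusted p = 0.129 from limma). P4ha1 lay below every control array on every Rpt3-/- array, and P4ha2 was lower without control array 1 (log2 fold change -0.60, adjusted p = 0.00851 from limma), with -0.31 without control array 2. The lysyl hydroxylase genes Plod1 and Plod2, whose products prepare collagen for cross-linking, had 0.04 and 0.20. A dimmer second probe of Plod1 had -0.04, and Plod2 was above background on 1 control array.

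Pdgfra, the receptor by which fibro-adipogenic progenitors respond to platelet-derived growth factor, rose. It measured 11.16, 10.87 and 11 on the Rpt3-/- arrays against 9.93, 10.50 and 10.24 in the controls. No array overlapped, and the log2 fold change was 0.78 (SE 0.16, adjusted p = 0.00834 from limma).

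Over most members, as over most genes, the control arrays were spread more widely than the Rpt3-/- arrays. The range over the 3 Rpt3+/+ arrays was wider than that over the Rpt3-/- arrays in 31 of 43 members (72.1%), against 62.0% of all genes with a value on every array, and its median was 0.48 on the log2 scale against 0.29, beside 0.34 against 0.28 over all genes. Control array 1 was the lowest control for 32 members (74.4%), against 44.7% of all genes. Control array 2 was the highest control for 33 members (76.7%), against 45.4%. Control array 1 was also the lowest of all 6 arrays for 31 members (72.1%), against 28.7% of all genes. That last contrast also depends on direction, since 34 of the 43 members had positive log2 fold changes. Array 1 was the brightest and array 2 the dimmest of the 6 before normalization, and the part of this in the spread of the members was not tested. Without control array 1, 14 members were higher and 3 lower, 12 of the 14 being among those called on all arrays, while 12.8% of all genes were higher and 9.81% lower. Without control array 2, 19 members were higher and 0 lower, against 15.7% and 9.14% of all genes. Without Rpt3-/- array 1, Rpt3-/- array 3 or control array 3, 7, 8 and 9 members were higher, against 8.51%, 7.83% and 7.37% of all genes.

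**Figure D3:**
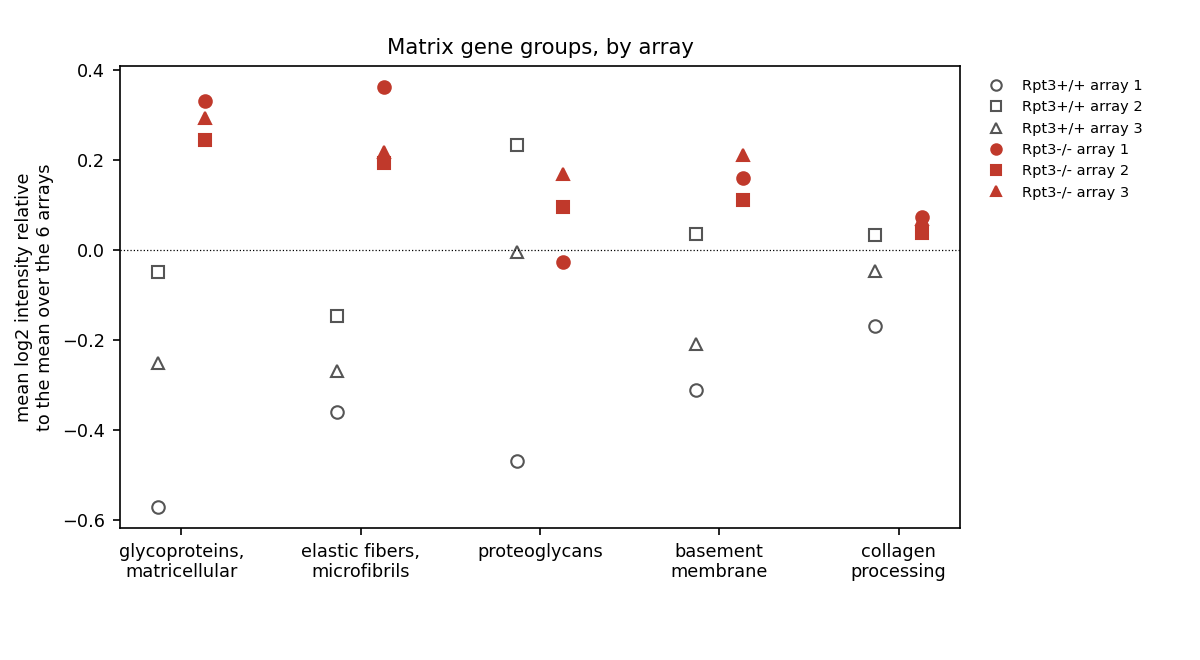
Mean over the genes of each of the 5 role groups with several genes (Pdgfra left out) of log2 intensity minus the gene's mean over all 6 arrays, with 1 point per array. In 4 groups the 3 Rpt3-/- points lie above the 3 Rpt3+/+ points. For collagen processing they are barely apart, with 0.038 for Rpt3-/- array 2 and 0.035 for control array 2. Among proteoglycans control array 2, at 0.23, lies above all Rpt3-/- arrays.

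Per array, the mean over the 43 members of log2 intensity relative to each gene's own mean was 0.20, 0.15 and 0.21 in Rpt3-/- muscle and -0.40, 0.01 and -0.17 in Rpt3+/+ muscle. For the proteoglycans the means were -0.03, 0.10 and 0.17 against -0.47, 0.23 and 0.00, and the groups overlapped. Actb, against which the study set array ratios, itself had a log2 fold change of 0.45 (SE 0.12, adjusted p = 0.0294 from limma), and 17 members lay above it and 26 below.

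Genes next to the members in the same pathways were counted in the same fit. Of 17 further collagen-processing genes 8 rose and 0 fell, with a median log2 fold change of 0.45. The largest changes were those of Mia3, which helps procollagen leave the endoplasmic reticulum, at 1.07, and of P3h1, Crtap and Ppib, which form the prolyl 3-hydroxylase complex of collagen, at 0.97, 0.95 and 0.81. Of 51 further non-collagen matrix genes 11 rose and 0 fell, with a median of 0.10. They were led by Cilp, a cartilage matrix protein gene, at 1.57, Matn4, a matrilin gene above background on 1 control array, at 0.95, the matricellular gene Ccn1 at 0.94, and Efemp2, which encodes a fibulin of elastic fiber assembly, at 0.86.

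Among 23 matrix receptor genes 5 rose and 0 fell, with a median log2 fold change of 0.08. They were Sdc4, a syndecan that binds fibronectin with integrins, at 1.27, the laminin receptor gene Bcam at 0.99, Itga7, the α subunit of the laminin-binding integrin of muscle, at 0.87, Itgav, an integrin subunit that binds fibronectin and periostin, at 0.61, and the collagen receptor gene Ddr2 at 0.47. Of 20 genes of the TGF-β pathway, a main inducer of matrix transcription, 3 rose and 1 fell, near the 12.7% and 6.56% of all tested genes, with a median of -0.07. The ligand gene Tgfb1 had 0.66, Ltbp3, which holds the ligand latent in the matrix, 0.94, and the transcriptional repressor gene Tgif1 1.13. Smad3, a transducer of the signal, was above background on 0 Rpt3-/- arrays and was at least 1.47-fold lower there (adjusted p = 0.017 from limma), a bound against the lowest signal above background on each array.

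Markers of the cells that make or surround the matrix moved in part with the members. Of 16 tested fibroblast markers 4 rose and 0 fell, with a median log2 fold change of 0.27, namely S100a4, which macrophages also express, at 2.83, the surface antigen gene Ly6a at 0.63, the mural and fibroblast receptor gene Pdgfrb at 0.62 and Clec3b at 0.62. Tcf7l2, Has1 and Pcdh18 lacked signal over background. The summed intensity of the tested fibroblast markers was 20724 to 21834 in Rpt3-/- and 16623 to 18456 in Rpt3+/+ muscle. This separation rested on S100a4, since without it, a choice made after seeing the data, the sum was 17649 to 19766 against 16249 to 18115 and the groups overlapped. The brightest probe in both sums was that of Gsn, with a log2 fold change of -0.08. Of the 16 fibroblast markers 5 had negative log2 fold changes, the lowest being -0.45 for Cd34 (adjusted p = 0.144 from limma). Of 9 tendon cell markers 5 rose and 0 fell, with a median of 0.58, led by the tendon transcription factor gene Scx at 0.86, Comp at 0.81, Cilp2 at 0.77 and Chad at 0.59. Tnmd, a defining tendon gene, had 0.00 and Mkx was above background on too few arrays to be tested. The summed intensity of the tendon markers was 6788 to 7905 against 4919 to 6943 and overlapped. Of this list Comp, Chad, Thbs3 and Kera were also counted among the further matrix genes above.

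Of 20 macrophage markers 15 rose and 0 fell, with a median log2 fold change of 1.34, and the largest changes were those of Ctss at 2.68, Spp1 at 2.19, C1qa at 2.13 and C1qb at 1.92. Among those that rose, Aif1 and Fcgr1 were above background on 3 Rpt3-/- arrays but on only 1 control array each. The summed intensity of the 20 macrophage markers was 10754 to 15349 against 4670 to 5221, while Adgre1, Itgam and Ptprc did not have a probe above background on enough arrays. Of 9 satellite cell and myoblast markers Ncam1 and Myog rose, by 1.61 and 1.12, and Pax7 was not tested for want of signal. Of 8 adipocyte markers 3 rose, Cfd by 1.57, Adipoq by 1.21 and Retn by 1.04, and Lpl fell by 0.41. The summed intensity of the adipocyte markers was 21639 to 24421 against 18365 to 19508. Without Cfd it was 19908 to 22900 against 18010 to 18970, again without overlap. Of 15 endothelial and mural markers 0 rose and 1 fell, Rgs5 by 0.77, and of 10 Schwann cell and nerve markers 0 passed (0 also at an unadjusted p under 0.05 from limma). Of 17 muscle fiber genes 2 rose, Tnnt1 of slow fibers by 1.23 and Myh1 by 0.70. Another 4 fell, among them Casq1 by 0.98, Mb by 0.86 and Myl1 by 0.85. These counts stand beside 12.7% higher and 6.56% lower over all tested genes. The summed intensity of the 17 genes was 242865 to 255133 against 265368 to 280341, while their mean log2 intensities overlapped between the groups. The summed intensity of the 43 members was 54568 to 59175 against 35283 to 42602. The part of each cell type in the change of the members was not tested.

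**Figure D4:**
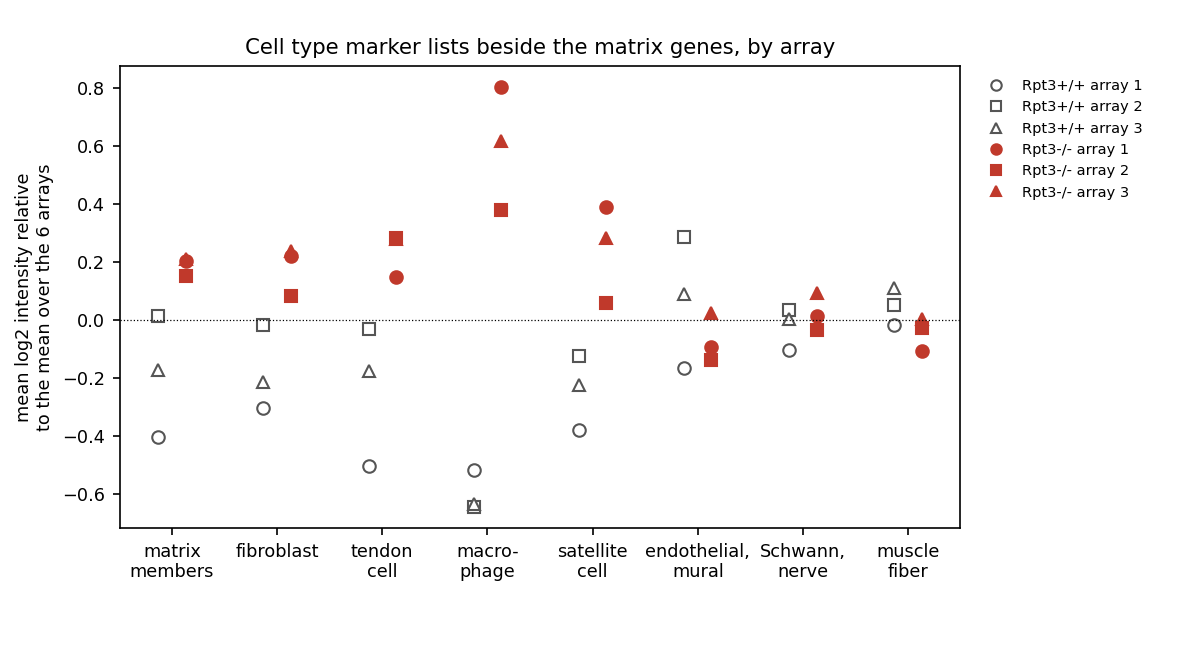
Mean over the genes of each list of log2 intensity minus the gene's mean over all 6 arrays, with 1 point per array, for the 43 members and 7 cell type marker lists. The Rpt3-/- arrays lie above the Rpt3+/+ arrays for the members and the fibroblast, tendon cell, macrophage and satellite cell lists, by most for macrophage markers, but without S100a4 the fibroblast means overlap (0.00 for Rpt3-/- array 2 and 0.08 for control array 2). The groups overlap for endothelial, Schwann cell and muscle fiber markers, the last with 0.00 for Rpt3-/- array 3 and -0.02 for control array 1. The adipocyte list is not drawn. Its means did not overlap, at 0.31, 0.18 and 0.28 on Rpt3-/- arrays 1 to 3 against -0.51, -0.01 and -0.25 on Rpt3+/+ arrays 1 to 3.

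The 14 members that rose differed in how far their call held. Mgp, Mfap2 and Mfap5 passed in all 20 alternative analyses with a p, and Fn1, Thbs4, Pcolce and Pdgfra in 19, failing only the methods' unpaired test (adjusted p between 0.0532 and 0.0856). Tnc passed in 18, Fbln1 in 16, Nid1 in 13, Postn and Thbs2 in 12, Fbln2 in 11 and Lamb2 in 10. The log2 fold change of all 14 stayed positive throughout, between 0.42 for Lamb2 and 1.80 for Mgp.

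**Figure D5:**
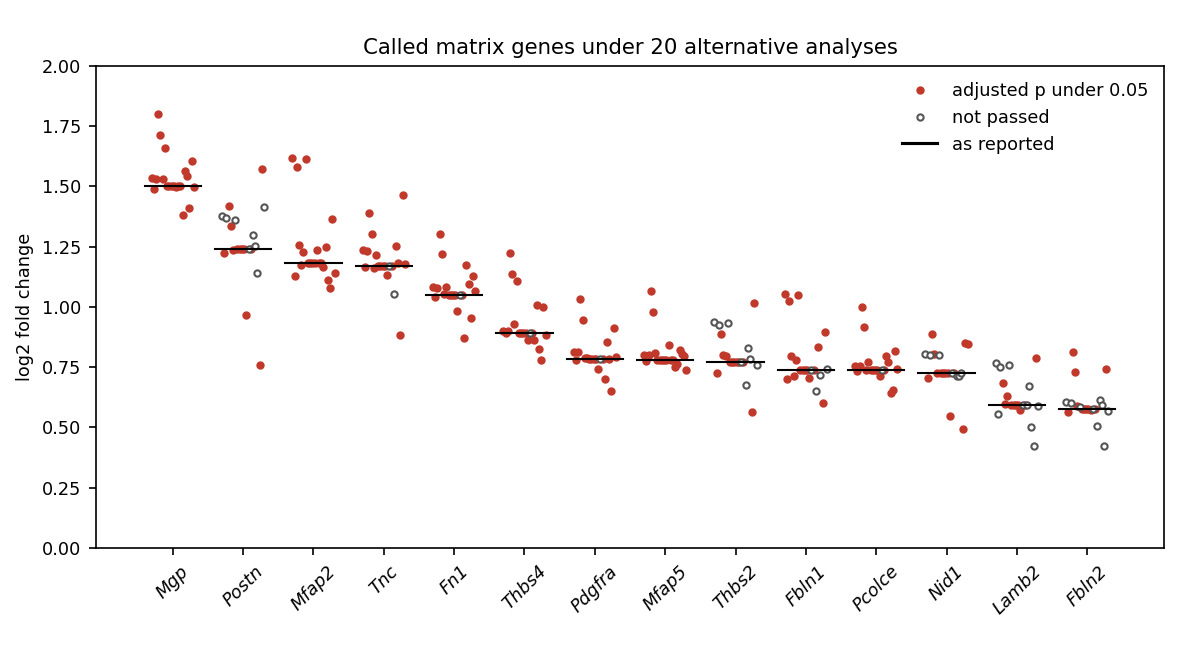
Log2 fold change, Rpt3-/- over Rpt3+/+, of the 14 members that rose, with 1 point for each of the 20 alternative analyses that give a p and a black line at the reported value. Filled points passed an adjusted p under 0.05 and open points did not, and every gene except Mgp, Mfap2 and Mfap5 has at least 1 open point.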

How the data were processed

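The authors deposited, for each of 6 CodeLink mouse arrays, a scanner report with an intensity, a local background intensity and a quality flag per spot, without normalization between arrays, and a value table of processed intensities on a linear scale, used here as an alternative. Probes were named by the platform annotation, or through their RefSeq accession (Fbn1 among them). The 1260 control spots were left out. Backgrounds were corrected by normexp with an offset of 50, quantile normalization was applied between arrays, and limma 3.58.1 (lmFit, eBayes; R 4.3.3) was fitted to log2 intensities, with Benjamini-Hochberg adjustment over 14731 genes that had a probe above background on at least 3 arrays. Where a gene had several such probes the brightest was used. The steps were tested on simulated data. Files were read and promoters searched with Python 3.11.15.

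The members, role groups and lists were chosen with earlier results of these data known, so no list was tested. Every member was named with its value or detection, with all 6 arrays for members called and for the lowest adjusted p of each role group, and up to 4 called genes per list. Agrn, Aspn, Dcn, Ogn and Tgfbi, and Ddr2, Myh1, Myh4, Ckm and Acta1, were singled out after their values were seen. Each slide held 1 array and no batch is given. The labels do not say whether mice shared a litter, and with 3 arrays per group p-values rest on the spread between these mice. Alternatives covered background correction, normalization, probe filters, several probes, variance models, the unpaired parametric test that the methods name, a 1.5-fold rule, lists without their most changed gene (added after seeing the data), a block for the replicate number and the omission of single arrays. The replicate numbers are not said to pair mice and were not taken as pairs. Deviations of same-numbered arrays from their group means had correlations of 0.126, -0.438 and 0.0976. Arrays of different number reached 0.471 (Rpt3-/- array 3 with control array 2) and -0.485 (Rpt3-/- array 3 with control array 1). With 3 arrays per group these correlations depend on each other and cannot decide whether mice were paired. The number of arrays limits the precision.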

Additional observations from a re-analysis of the deposited data

How the results depend on the processing

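The 14 higher and 0 lower members became 9 and 0 with plain background subtraction or with normexp without an offset, 24 and 0 with arrays centred on the median (members' median log2 fold change 0.61 in place of 0.40), 24 and 4 with array quality weights (Tgfbi, Ctgf, Ogn and P4ha2 lower) and 5 and 0 with the methods' unpaired test (Sparc, Dcn, Mgp, Mfap2 and Mfap5; 18 at an unadjusted p under 0.05). Leaving out each array in turn gave 7 to 19 members higher and 0 to 3 lower, with 7 without Rpt3-/- replicate 1, 8 without Rpt3-/- replicate 3, 9 without control replicate 3, and Tgfbi, Ogn and P4ha2 lower without control replicate 1. The replicate block gave the same 14 higher and 0 lower. Between 11 and 19 members were higher in the remaining alternatives, and 13 of the 14 exceeded 1.5-fold. Over all genes, 1870 higher and 967 lower became 940 and 427 with the methods' test, 3007 and 2361 with array weights, 1086 and 389 without control replicate 3, 1153 and 541 without Rpt3-/- replicate 3, and 1254 and 478 without Rpt3-/- replicate 1. The sign turned in 1 to 4 alternatives for Ctgf, Aspn, Fmod, Prelp, Lamc1 and Plod1, none of them called in the reported analysis. The causes were not tested. Emilin1 and Lama4 lacked signal over background, Thbs1, Prelp and Plod2 were dim on some arrays, and slide could not be fitted as a block with 1 array each.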
